A study of Rattus norvegicus with 6 samples.

Results

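The genes described here encode the machinery that docks secretory vesicles at the cell surface and fuses them with it: SNAREs, Sec1/Munc18 proteins, synaptotagmins and synaptotagmin-like proteins, Doc2, Munc13, RIM and complexin proteins, and the exocyst. Members were the named rows of a deposited transcript count table whose symbol begins with Syt, Sytl, Stx, Stxbp, Vamp, Snap, Unc13, Rims, Cplx, Exoc or Doc2 followed by its number or letter. That rule found 80 genes in 159 rows, of 21553 named genes and 101905 rows in all. Of the 80 genes, 69 passed the filter on low counts and were tested. The rule works on names, so it also took Snap91, which encodes a clathrin assembly protein (AP180) and not a SNARE. Snap23 was not among the named rows and was not analysed here.

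RNA was sequenced from INS-1 cells, an insulin-secreting line derived from a rat insulinoma, at passages 7 to 15. The 3 INS-MOCK libraries carry the genotype wild type, and whether they were given a virus is not stated. The 3 INS-SMA libraries came from the same line after lentiviral expression of alpha smooth muscle actin (α-SMA, gene ACTA2). The labels do not give the promoter of the construct or whether the cells are a clone, and the series calls the 3 libraries of a group biological replicates without naming separate transductions, so p-values measure the spread between these libraries.

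Insulin leaves the beta cell when secretory granules fuse with the plasma membrane. A vesicle SNARE of the granule (VAMP2 or a relative) zips together with the plasma membrane SNAREs syntaxin 1A and SNAP-25, under the control of Munc18 proteins, and calcium triggers the last step through synaptotagmins. Granuphilin and other synaptotagmin-like proteins tether granules before fusion, Munc13 and RIM proteins prime them, complexins clamp the assembled complex, and the exocyst tethers carriers on other routes to the cell surface.

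The libraries held 24719503 to 39608609 counts, and 32.7% to 36.7% of these lay in rows with no gene name, which were left out. Human ACTA2 made up 0.000444% to 0.000696% of named counts in INS-MOCK and 4.54% to 5.93% in INS-SMA. The members together took 0.518% to 0.521% of named counts in INS-MOCK and 0.518% to 0.535% in INS-SMA. Values below are CPM, counts relative to the library size after scaling by TMM, edgeR's trimmed mean method. The table gives no transcript lengths, so levels are compared between groups and not between genes. Among markers of the line, 7 of 8 beta cell genes were lower in INS-SMA and 0 higher, with a summed level of 27611 to 29610 CPM in INS-MOCK and 2117 to 2624 CPM in INS-SMA. Of 8 interferon response genes, 7 were higher and 0 lower, with sums of 14.9 to 57.8 and 6613 to 6930 CPM, the 57.8 in INS-MOCK replicate 1. Of 8 immune and endothelial markers 5 were named and 3 tested, with sums of 1.94 to 3.59 and 2.45 to 3.18 CPM. In that list Ptprc (CD45) was at 0 and 1.52 CPM on average, Cd68 at 0.568 and 0.315, Vwf at 1.84 and 0.865, Kdr at 0.146 and 0.0648 and Cdh5 at 0 and 0.111, and Ptprc was called higher and 0 genes lower. Of 8 fibroblast and smooth muscle markers 7 were named and 4 tested, 2 called higher and 1 lower, with sums of 16.8 to 21.1 and 16.4 to 17.2 CPM. Of 7 markers of other islet cells 3 were named and 2 tested, both called lower, with sums of 719 to 778 and 37.4 to 46 CPM. Ptprc, Col3a1, Mx1, Gbp5 and Ifit1, all called higher, reached the low-count filter in every library of INS-SMA but not of INS-MOCK. Their calls add no test to their levels. The part of these marker shifts in the results below was not tested. In bulk RNA, fewer cells of a type and less RNA per cell cannot be told apart.

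Of the 69 tested members, 23 were higher and 17 lower in INS-SMA (edgeR quasi-likelihood test, threshold 0.05 on the adjusted p), and 29 did not pass. That is 58% called, where 55.1% of all tested genes were. Of all 13363 tested genes, 28.1% were called higher and 27.0% lower, against 33.3% and 24.6% of the members. The median log2 fold change was 0.01 for the members and 0.03 for all tested genes. Of the 23 higher members, 19 reached the low-count filter in both groups, while Stx11, Stxbp6, Syt2 and Unc13c reached it in INS-SMA alone. Those 4 passed the filter through the group in which they were high, so their values are given below without a test. Thus the members as a set were called about as often as other genes, and they moved in both directions. At least 2-fold changes were called for 12 members upward and 8 downward, beside 15.6% and 12.5% of all genes. The 12, like the 23, include Stx11, Stxbp6, Syt2 and Unc13c, and the shares of all genes were not split by the filter. The 3 libraries of INS-SMA lay wholly above or below those of INS-MOCK for 45 members (65.2%), and for 65.3% of all tested genes.

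**Figure D1:**
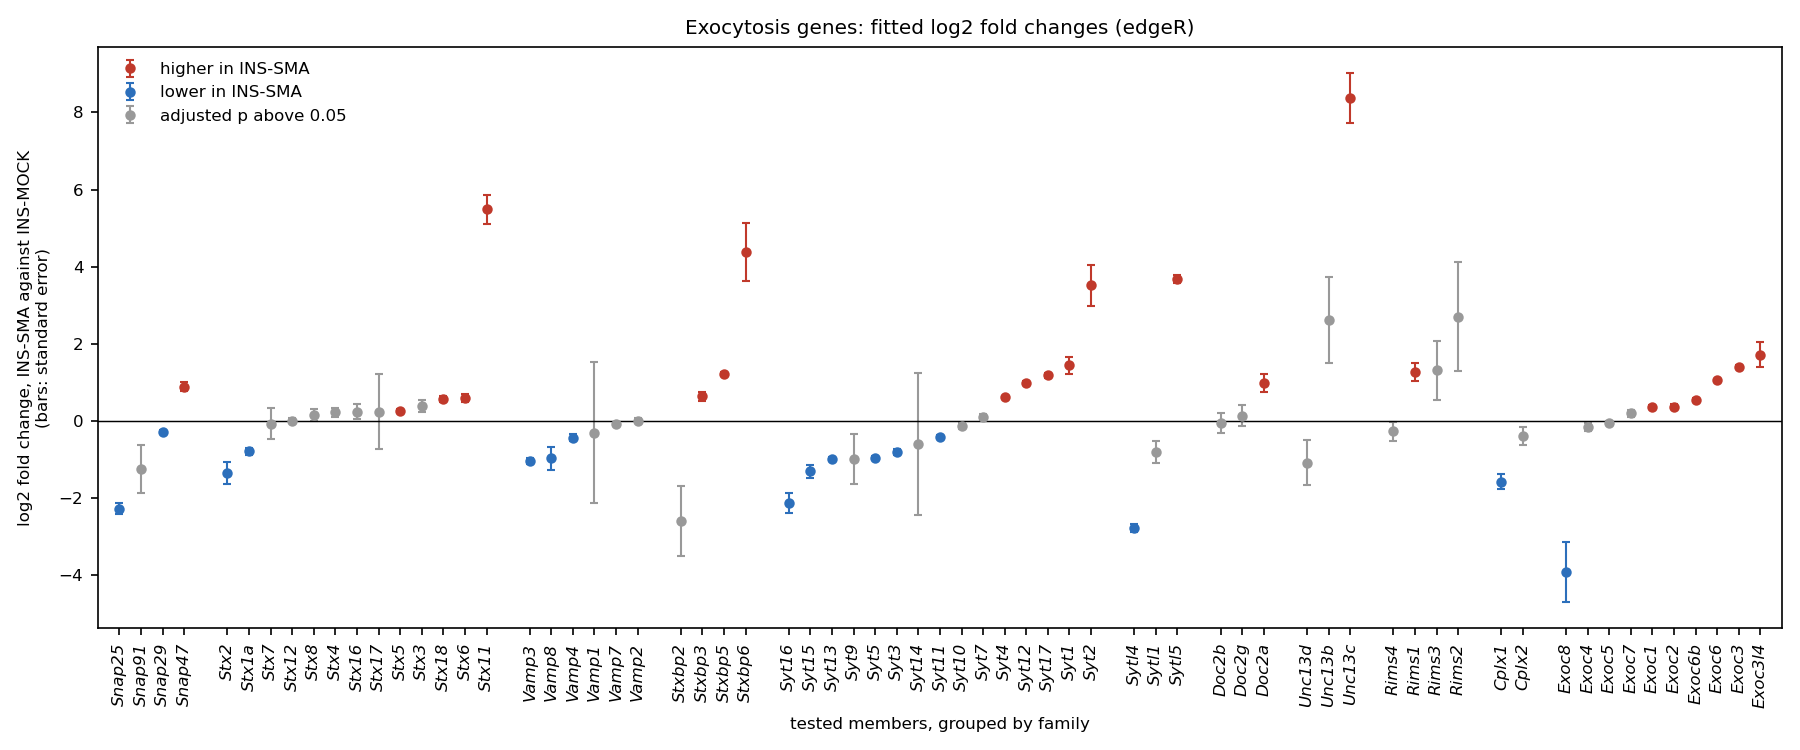
Fitted log2 fold change of 67 of the 69 tested members (vertical axis, INS-SMA against INS-MOCK, bars are standard errors), grouped by family along the horizontal axis and coloured by the edgeR call. Members of most families lie on both sides of 0, from -3.91 for Exoc8 to 5.49 for Stx11, with Unc13c, which had no counts in INS-MOCK, plotted at its fitted 8.37.

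The granule tethers of the synaptotagmin-like family moved apart. Sytl4 encodes granuphilin, which binds Rab27a and syntaxin 1A and docks insulin granules (chromosome X, 104765294 to 104814145, minus strand, in the deposited coordinates). Its level was 344, 346 and 380 CPM in INS-MOCK replicates 1 to 3 and 44.9, 56.1 and 54.5 CPM in INS-SMA. All INS-SMA libraries lay far below all INS-MOCK libraries, with a log2 fold change of -2.78 (SE 0.10 with edgeR's adjusted p = 1.5e-05). Sytl5, another Rab27 effector of the family (chromosome X, 14019961 to 14109568, on the plus strand in the deposited table but the minus strand in RefSeq's GRCr8 promoter table), was at 2.93, 2.91 and 3.21 CPM in INS-MOCK and at 40, 40.5 and 35.7 CPM in INS-SMA. It rose by 3.68 on the log2 scale (SE 0.11 with edgeR's adjusted p = 8.51e-06). In the most abundant of its 4 rows taken alone the adjusted p was 0.0617, the highest of its 16 alternatives. Sytl1 was at 1.69 to 2.82 CPM in INS-MOCK and 1.15 to 1.44 CPM in INS-SMA, and its log2 fold change of -0.80 did not pass (edgeR adjusted p = 0.0546), though it did with DESeq2 and under a stricter filter. Sytl2 and Sytl3 had no counts in INS-MOCK and at most 0.229 CPM in INS-SMA, and were not tested.

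The plasma membrane SNARE partners of insulin release fell. Snap25, which supplies helices to the SNARE complex and is the target of botulinum toxin A (chromosome 3, 129599353 to 129788400, plus strand), was at 69.5, 88.6 and 78.7 CPM in INS-MOCK and at 14.7, 18.2 and 16.3 CPM in INS-SMA. The groups did not overlap, and the log2 fold change was -2.27 (SE 0.13 with edgeR's adjusted p = 5.34e-05). Stx1a, which encodes syntaxin 1A (chromosome 12, 24682041 to 24710019, minus strand), was at 66.1, 64.5 and 70.6 CPM in INS-MOCK and at 37.6, 35.7 and 42.6 CPM in INS-SMA. Its fall of 0.79 on the log2 scale (SE 0.09 with edgeR's adjusted p = 0.000626) was smaller than that of Snap25, a difference between genes that was not tested. Stx2, a plasma membrane syntaxin of many cell types, fell from 10.7 ± 2.58 to 4.18 ± 1.05 CPM (SD, n = 3), by 1.35 on the log2 scale. Snap29, which acts on internal membranes and in autophagosome fusion, fell by 0.29, and its most abundant row alone did not pass (-0.20, adjusted p = 0.111).

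Stx3 and Stx4, other syntaxins of the cell surface, gave no call. Stx4, the partner of SNAP-23 and Munc18c, had a log2 fold change of 0.22 (SE 0.11) and did not pass (edgeR adjusted p = 0.142). The value was 0.03 in its most abundant row. Stx3, a syntaxin of apical and granule membranes, was at 16.2, 19.4 and 21.8 CPM in INS-MOCK and 26.9, 22.5 and 26.1 CPM in INS-SMA. Its groups did not overlap but its log2 fold change of 0.39 missed the threshold in edgeR (adjusted p = 0.0662). That p was 0.0146 with DESeq2, 0.0385 with no normalisation factors and 0.0479 when INS-MOCK replicate 3 was left out, and 16 alternatives spanned 0.0146 to 0.179. Snap47, a SNAP-25 relative of internal membranes, rose by 0.89 (SE 0.12).

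Stx11 was barely detected in INS-MOCK and well above that in every INS-SMA library. It encodes a syntaxin that cytotoxic lymphocytes need to release their granules, and whose loss causes a familial form of haemophagocytic lymphohistiocytosis (chromosome 1, 7039162 to 7064870, minus strand). It was at 0.909, 0.359 and 0.727 CPM in INS-MOCK (22, 8 and 17 counts) and at 30, 32.5 and 28 CPM in INS-SMA (500, 709 and 720 counts). The fitted log2 fold change was 5.49. In the immune and endothelial list above, Ptprc was at 0 CPM in every INS-MOCK library and at 1.86, 1.56 and 1.13 CPM in INS-SMA. Cd68, Vwf and Kdr were lower on average in INS-SMA, and the sums of the list overlapped. Which cells gave the Stx11 counts was not tested.

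The stretch upstream of the start is shown for a gene that fell strongly, Sytl4, and for the syntaxins that moved apart, Stx1a and Stx11, so that their base make-up can be set side by side. These are the 250 bases before the transcript start in the RefSeq promoter table (build GRCr8, all on the minus strand and written 5′ to 3′ in the gene's direction). They lie at chrX:101479152-101479401, chr12:27306472-27306721 and chr1:9140220-9140469, and the start used in INS-1 cells was not measured. Capitals mark matches to any of 4 motifs searched on both strands.
Sytl4: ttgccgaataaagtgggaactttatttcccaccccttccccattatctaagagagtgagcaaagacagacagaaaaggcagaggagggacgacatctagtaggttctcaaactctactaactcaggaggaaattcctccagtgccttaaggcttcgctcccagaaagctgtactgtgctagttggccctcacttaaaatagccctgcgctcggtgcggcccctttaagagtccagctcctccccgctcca
Stx1a: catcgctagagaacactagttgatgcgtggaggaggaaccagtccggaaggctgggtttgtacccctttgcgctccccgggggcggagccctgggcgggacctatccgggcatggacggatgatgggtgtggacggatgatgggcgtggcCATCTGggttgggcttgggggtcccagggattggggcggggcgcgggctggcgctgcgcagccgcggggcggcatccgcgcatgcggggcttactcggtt
Stx11: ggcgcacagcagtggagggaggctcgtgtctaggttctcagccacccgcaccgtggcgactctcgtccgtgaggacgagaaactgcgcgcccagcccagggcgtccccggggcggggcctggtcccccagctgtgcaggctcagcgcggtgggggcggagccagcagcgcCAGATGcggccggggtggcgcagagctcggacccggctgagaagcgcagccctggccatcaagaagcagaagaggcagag
The motifs were GAAANNGAA (core of the interferon-stimulated response element), TGACGT (cyclic AMP response element), CAGATG (an E-box of the kind NeuroD1 binds) and CACGTG (an E-box of the kind Myc and USF bind), and no pair of them overlapped in these windows. CAGATG lay 100 to 95 bases before the start of Stx1a, on the opposite strand, and 80 to 75 bases before that of Stx11. The Sytl4 window held none of the 4. The promoter table matched 61 of the 80 members, with 75 windows. CAGATG was in 21.3% of the members' windows and in 14% of all 33469, and GAAANNGAA in 13.3% and 8.12%. TGACGT was in 8% and 6.95%, and CACGTG in 6.67% and 5.59%. Such a match is a description of letters, and the windows of Stx1a and Stx11 both held the same E-box.

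Syntaxins of internal membranes rose modestly or were not called. Stx6, of the trans-Golgi network and immature granules, rose by 0.60 from 50.4 ± 6.29 to 76.2 ± 0.247 CPM. Stx18, a syntaxin of the endoplasmic reticulum, rose by 0.57 (edgeR adjusted p = 0.00172), and Stx5, of the Golgi, by 0.26 (0.00885). Their INS-SMA libraries lay above all INS-MOCK libraries. Stx5 did not pass in its most abundant row alone (log2 fold change 0.16, adjusted p = 0.126). The endosomal and autophagosomal syntaxins Stx7, Stx8, Stx12, Stx16 and Stx17 had log2 fold changes of -0.07 to 0.24 and did not pass. In all, 4 of 14 tested syntaxins were called higher (28.6%, with Stx11 among them) and 2 lower (14.3%), beside 28.1% and 27.0% of all tested genes.

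Among the vesicle SNAREs, 3 of 6 tested were called lower and 0 higher, beside 27.0% and 28.1% of all tested genes, and the call of Vamp8 depended on single libraries. Vamp3 (cellubrevin), the vesicle SNARE of recycling endosomes (chromosome 5, 168126157 to 168136666, minus strand), was at 113, 106 and 110 CPM in INS-MOCK and 49.2, 57.5 and 53.1 CPM in INS-SMA. It fell by 1.04 on the log2 scale (SE 0.07 with edgeR's adjusted p = 9.37e-05). Vamp4, of the trans-Golgi network, fell by 0.43 (edgeR adjusted p = 0.0103), but its most abundant row alone did not pass (adjusted p = 0.473, the highest of its alternatives). Vamp8 (endobrevin) was at 4.38, 7.53 and 5.43 CPM against 2.16, 3.44 and 3.23 CPM, a log2 fold change of -0.97 at an edgeR adjusted p of 0.0398. Its p was 0.0753 to 0.103 without either INS-MOCK replicate 2 or 3, 0.0649 to 0.096 without any 1 INS-SMA library, 0.0503 with all scaling factors at 1, 0.058 with no low-count filter and 0.0939 in its row among all rows. It ranged from 0.00809 to 0.103 over the alternatives. Vamp7, the vesicle SNARE of lysosomes and late endosomes, had a log2 fold change of -0.07 (SE 0.05) and did not pass. Vamp1 was at 2.35, 1.39 and 0.641 CPM in INS-MOCK and at 3.67, 0 and 0 CPM in INS-SMA, and its value of -0.30 had an SE of 1.82.

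Vamp2, the vesicle SNARE of the insulin granule (chromosome 10, 55675575 to 55679450, plus strand), gave no call as a sum, while each of its rows was called. As a gene it was at 226, 202 and 215 CPM in INS-MOCK and 227, 223 and 197 CPM in INS-SMA, a log2 fold change of 0.01 (SE 0.07 with edgeR's adjusted p = 0.945). The sum comes from 3 rows of the table, an Ensembl transcript and 2 rows named by the gene's identifier with a number. The latter are read here as assembled transcripts of the gene, which the table does not state, and their structures are not given. The Ensembl transcript was at 176, 157 and 168 CPM in INS-MOCK and 53.5, 69.5 and 69.4 CPM in INS-SMA. Tested among all 23402 named rows that passed the filter, it fell by 1.40 on the log2 scale (SE 0.13 with edgeR's adjusted p = 0.00137). The first numbered row was at 6.81, 8.43 and 7.86 CPM in INS-MOCK and 102, 95.1 and 66.2 CPM in INS-SMA, a rise of 3.49 (SE 0.22 with edgeR's adjusted p = 0.00038). The other numbered row rose by 0.65 (adjusted p = 0.0147). The Ensembl transcript thus held 77.7% to 78% of the gene's counts in each INS-MOCK library and 23.6% to 35.3% in each INS-SMA library.

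**Figure D2:**
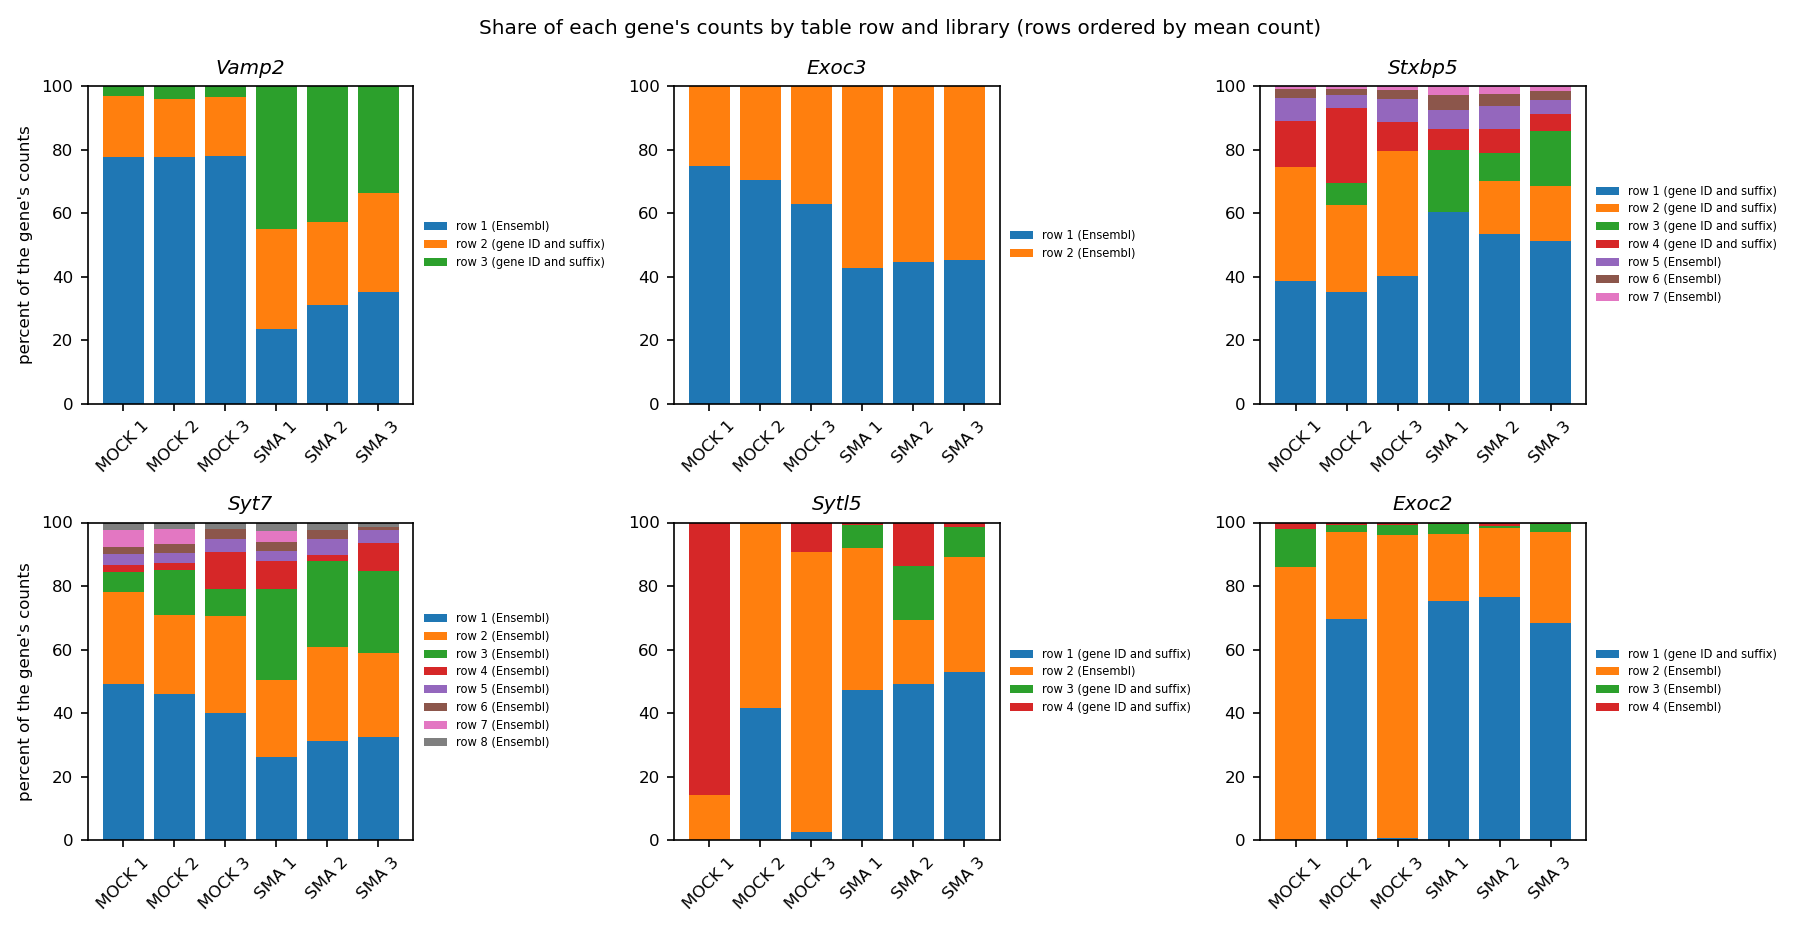
Share of a gene's counts held by each of its table rows (vertical axis, percent) in each library (MOCK and SMA with replicate number), for 6 members with several rows, coloured by row within each gene and labelled as an Ensembl transcript or a row with the gene's identifier and a suffix. The Ensembl row of Vamp2 falls from about 78% to 23.6% to 35.3%, while in Exoc2 and Sytl5 the split also varies among INS-MOCK libraries.

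Of 42 members with several rows, Vamp2 was the 1 with rows called in opposite directions. Across all members 120 rows were tested, of which 27 were called higher and 15 lower, where 15.6% and 14.6% of all named rows were. Rows of the numbered kind took 7.57% of the members' counts in INS-MOCK and 14.1% in INS-SMA. In Syt7 the gene sum had a log2 fold change of 0.10, while a transcript row of it rose from 4.54, 10.1 and 6.41 to 21.2, 20.6 and 21.7 CPM, by 1.57 (edgeR adjusted p = 0.0201), and its most abundant row had a value of -0.50 (adjusted p = 0.0904). In Exoc2 the split differed among INS-MOCK libraries, with 69.7% of counts in a numbered row in replicate 2 and 0% and 0.622% in the others. How reads were divided among rows of 1 gene is not given in the sources used here, so such values are less certain than the sums.

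Sec1/Munc18 proteins and their relatives clasp syntaxins. Stxbp3, which encodes Munc18c, the partner of syntaxin 4, rose by 0.64 (SE 0.11 with edgeR's adjusted p = 0.00484). Stxbp2 (Munc18-2, the partner of syntaxin 11 and syntaxin 3) was at 42.4, 36.4 and 3.25 CPM in INS-MOCK and 5.41, 4.82 and 3.38 CPM in INS-SMA. INS-MOCK replicate 3 stood with the INS-SMA libraries, and the log2 fold change of -2.59 missed the threshold (edgeR adjusted p = 0.0573). Without that library it was -3.11 (adjusted p = 0.000918), and DESeq2 gave 0.0015, in a range of 0.000918 to 0.152.

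Among inhibitors of SNARE assembly in this family, Stxbp5 was higher in INS-SMA, Stxbp6 reached the filter there alone and Stxbp5l was not tested. Stxbp5 encodes tomosyn, which occupies syntaxin and SNAP-25 in place of the vesicle SNARE (chromosome 1, 3858909 to 4011511, minus strand), and was at 167, 166 and 153 CPM in INS-MOCK and 377, 389 and 373 CPM in INS-SMA. It rose by 1.23 on the log2 scale (SE 0.05 with edgeR's adjusted p = 1.55e-05), and 4 of its 7 rows were called higher and 0 lower. Stxbp6 (amisyn), a tomosyn-like binder of syntaxin and SNAP-25, had 0, 3 and 2 counts in INS-MOCK and 29, 37 and 37 in INS-SMA. Its fitted log2 fold change was 4.39. Stxbp4 and Stxbp5l, a second tomosyn gene, failed the filter. Stxbp4 reached 3.18 and 3.63 CPM in INS-MOCK replicates 1 and 3 and at most 0.229 CPM in the other libraries. Stxbp5l was above 1 CPM in INS-MOCK replicate 1 (6.48 CPM) and INS-SMA replicate 3 (5.76 CPM) and at most 0.12 CPM elsewhere.

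**Figure D3:**
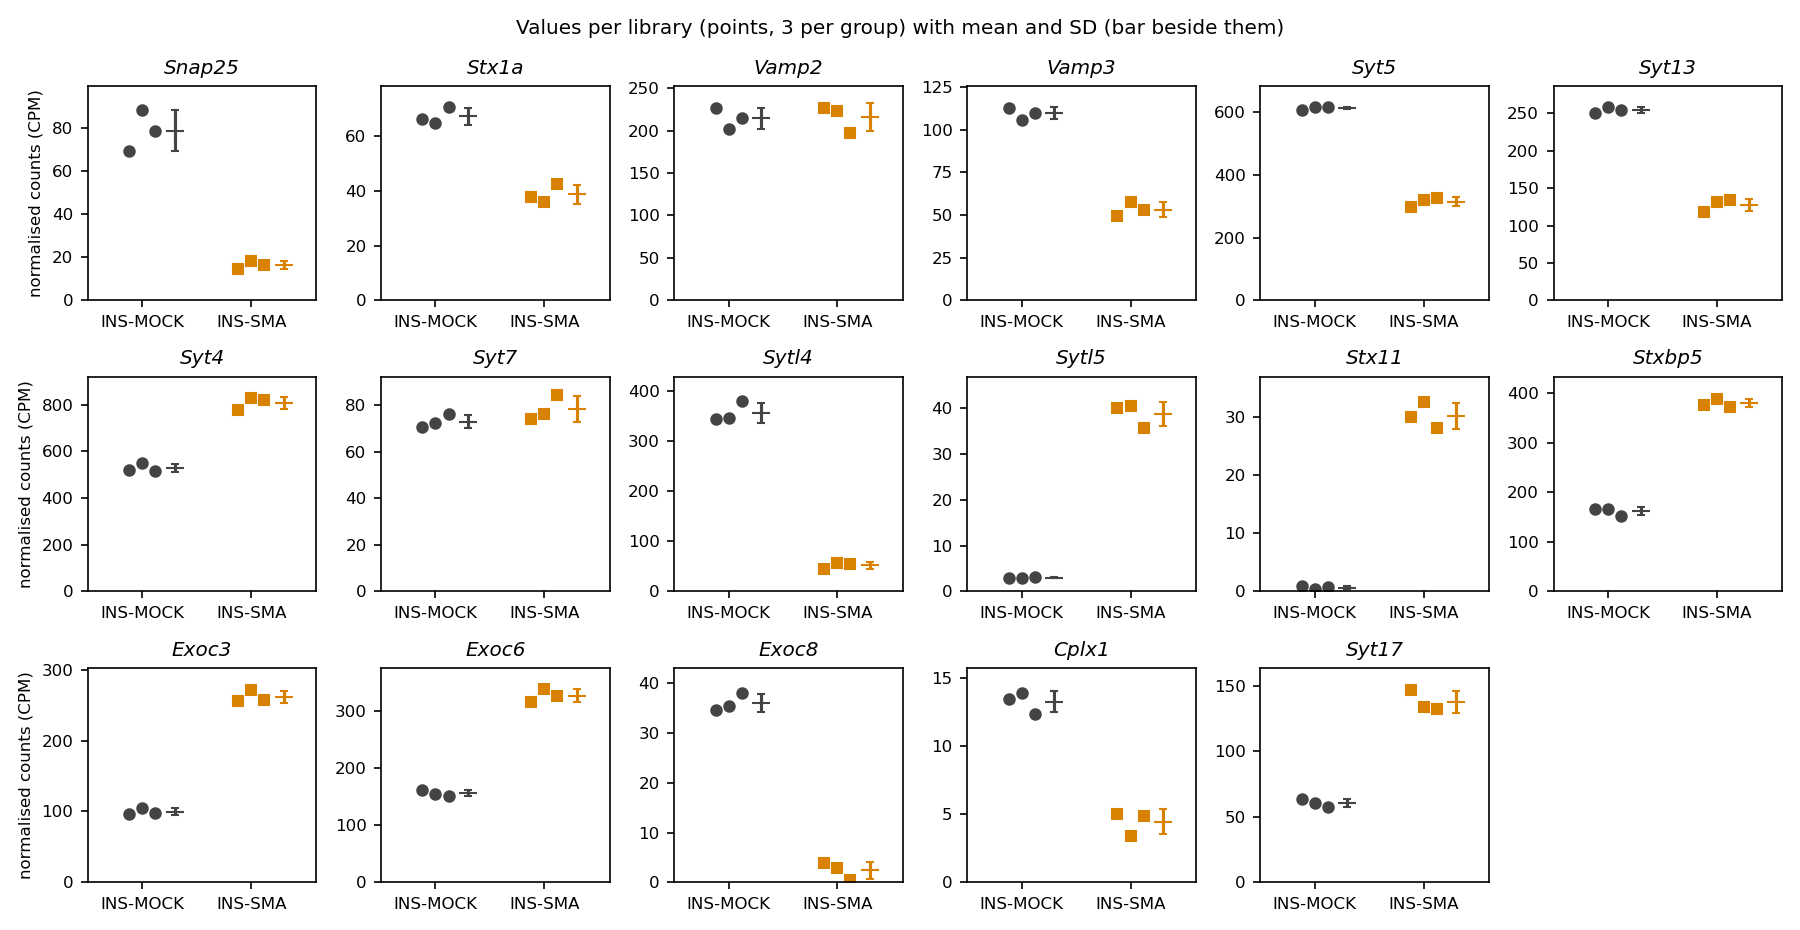
Normalised counts (vertical axes, CPM, each starting at 0) of 17 members in each of the 3 INS-MOCK (circles) and 3 INS-SMA (squares) libraries, with the mean and SD as a bar beside the points. The groups are apart in all panels shown except those of Vamp2 (214 and 215 CPM on average) and Syt7 (72.9 and 78.3 CPM).

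Of 15 tested synaptotagmins, 5 were called higher (33.3%, with Syt2 among them) and 6 lower (40%), beside 28.1% and 27.0% of all tested genes. Syt5, a calcium-binding synaptotagmin of dense-core vesicles (chromosome 1, 72860218 to 72867930, plus strand), was at 607, 614 and 614 CPM in INS-MOCK and 297, 321 and 325 CPM in INS-SMA. The groups lay well apart, with a log2 fold change of -0.96 (SE 0.04 with edgeR's adjusted p = 2.29e-05). Syt3, another calcium sensor, fell by 0.80, and its most abundant row alone did not pass (-1.38, adjusted p = 0.31). The names Syt5 and Syt9 have been exchanged in part of the literature, and the gene named Syt9 here was at 0.867, 3.77 and 0.94 CPM in INS-MOCK and 0.961, 1.01 and 0.817 CPM in INS-SMA. Only its INS-MOCK replicate 2 stood apart, and its log2 fold change of -0.99 (edgeR adjusted p = 0.253) was 0.04 without that library. Syt7, the high-affinity calcium sensor of insulin granules, had a log2 fold change of 0.10 (SE 0.07 with edgeR's adjusted p = 0.255) and did not pass. Syt10 (-0.14, SE 0.08) and Syt14 (-0.60, SE 1.85) did not pass either.

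The fast sensors of neuronal synapses were low in INS-MOCK. Syt1 went from 6.36, 3.99 and 4.96 to 15.4, 13.9 and 12.3 CPM, a rise of 1.44 on the log2 scale (SE 0.22 with edgeR's adjusted p = 0.00255). Syt2 was at 0.537, 0.403 and 0.128 CPM in INS-MOCK (13, 9 and 3 counts) and at 4.21, 3.62 and 4.63 CPM in INS-SMA, with a fitted log2 fold change of 3.52. In INS-SMA 90.8% to 100% of the counts of Syt2 lay in a numbered row that had no counts in INS-MOCK, so that row was at least 30.5-fold higher against a floor of 3 counts per library. All counts of its Ensembl row, by contrast, were at most 0.537 CPM in any library.

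Synaptotagmins whose C2 domains bind calcium weakly or not at all also went both ways. Syt4, a regulator of granule maturation and of the calcium sensitivity of release in beta cells (chromosome 18, 24172587 to 24182012, minus strand), was at 522, 550 and 517 CPM in INS-MOCK and 778, 828 and 818 CPM in INS-SMA. It rose by 0.61 on the log2 scale (SE 0.04 with edgeR's adjusted p = 9.67e-05). Its close paralogue Syt11, by contrast, fell by 0.42 (SE 0.05) from 125, 118 and 124 to 86.5, 92.8 and 94.3 CPM. Syt13, a synaptotagmin of the endocrine pancreas (chromosome 3, 81814261 to 81854605, plus strand), fell from 250, 258 and 255 to 118, 131 and 134 CPM, by 0.99 (SE 0.06 with edgeR's adjusted p = 5.15e-05). Syt17 rose from 63.5, 60.6 and 57.6 to 147, 134 and 132 CPM, by 1.18 (SE 0.06 with edgeR's adjusted p = 4.34e-05), and Syt12 rose by 0.98 (SE 0.05). None of these groups overlapped. Syt15 fell by 1.31 and Syt16 by 2.13, the latter from 3.53 ± 0.709 to 0.802 ± 0.107 CPM (SD, n = 3). Syt6, which is not one of these weak calcium binders, failed the filter, at most 0.901 CPM in any library.

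Among complexin genes 1 of 2 tested was called lower and 0 higher, and among RIM genes 1 of 4 was called higher and 0 lower. Of all tested genes, 28.1% were called higher and 27.0% lower. Cplx1, which encodes the SNARE clamp complexin 1 (chromosome 14, 2194933 to 2226598, plus strand), was at 13.5, 13.9 and 12.4 CPM in INS-MOCK and 5.05, 3.4 and 4.9 CPM in INS-SMA. It fell by 1.57 on the log2 scale (SE 0.20 with edgeR's adjusted p = 0.00124). Cplx2 was at 14.4, 24.7 and 21.1 against 17.3, 15.6 and 13.1 CPM, overlapping, and its log2 fold change was -0.39 (adjusted p = 0.214). Rims1, an active zone scaffold that binds Rab3, rose from 1.68 ± 0.266 to 4.07 ± 0.554 CPM (SD, n = 3), by 1.27. Rims2, the isoform best known in beta cells, was at 0.413, 2.78 and 2.39 CPM in INS-MOCK and 0.421, 9.87 and 25.9 CPM in INS-SMA. It thus ran from the lowest to the highest value within INS-SMA, and its log2 fold change of 2.70 (edgeR adjusted p = 0.163) was 1.47 without INS-SMA replicate 3 and 3.26 (adjusted p = 0.0405) without replicate 1. DESeq2 gave an adjusted p of 0.0306, in a range of 0.0306 to 0.441. Rims2 reached the low-count filter in every library of INS-SMA but not of INS-MOCK. These p-values carry the limit stated for the 4 members. Rims3 and Rims4 did not pass.

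Apart from Unc13b, the Munc13 genes were thinly covered. Unc13c had no counts in INS-MOCK and 28, 53 and 37 in INS-SMA (1.68, 2.43 and 1.44 CPM), at least 14.4-fold higher against that floor. Unc13b (Munc13-2) was at 2.52, 7.89 and 5.9 CPM in INS-MOCK and 32.7, 64.8 and 2.57 CPM in INS-SMA, so that INS-SMA replicate 3 lay within the INS-MOCK range and the test did not pass (adjusted p = 0.101). It passed with DESeq2 and when that library was left out. Unc13d did not pass, and Unc13a was at most 0.385 CPM in any library and not tested. Doc2a, a soluble calcium sensor, went from 1.2, 1.43 and 1.45 to 2.16, 2.89 and 3.07 CPM, a rise of 0.99 (edgeR adjusted p = 0.0155). The p-value was 0.0513 when INS-MOCK replicate 1 was left out, 0.0546 and 0.0543 for INS-SMA replicates 2 and 3, and 0.0598 in its row among all rows, the highest of its alternatives. Doc2a overlaps Ino80e on the other strand, at 51.1 CPM in INS-MOCK and not called. Doc2b, the sensor that works with Munc18c in beta cells, had a log2 fold change of -0.05 (SE 0.25) and did not pass. It was 0.04 with no normalisation factors, 0.19 when INS-MOCK replicate 3 was left out and 0.01 when INS-SMA replicate 3 was.

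Of 10 tested exocyst and exocyst-like genes, 6 were called higher (60%) and 1 lower (10%), beside 28.1% and 27.0% of all tested genes, and 3 did not pass. The 6 include the paralogue Exoc6b and the exocyst-like Exoc3l4. Exoc3 (Sec6) was at 96.2, 105 and 97.4 CPM in INS-MOCK and 255, 271 and 257 CPM in INS-SMA (chromosome 1, 31700953 to 31731815, plus strand). It rose by 1.39 on the log2 scale (SE 0.05 with edgeR's adjusted p = 1.33e-05), and both of its rows rose, by 0.72 and 2.23. Exoc6 (Sec15), the subunit that binds Rab11, went from 162, 156 and 151 to 316, 339 and 327 CPM, a rise of 1.06 (SE 0.04 with edgeR's adjusted p = 1.91e-05). Its paralogue Exoc6b rose by 0.54, Exoc2 (Sec5) by 0.37 and Exoc1 (Sec3) by 0.36. The INS-SMA libraries of all these lay above every INS-MOCK library. Exoc1 missed the threshold in its most abundant row (adjusted p = 0.0516, the highest of its alternatives), as did Exoc2 (log2 fold change 1.96 there, adjusted p = 0.566). Exoc3l4, an exocyst-like gene of low count, rose by 1.72.

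Exoc8 (Exo84) went the other way. Its single row (chromosome 19, 57647291 to 57649827, minus strand) was at 34.6, 35.3 and 37.9 CPM in INS-MOCK and at 3.85, 2.94 and 0.428 CPM in INS-SMA. It fell by 3.91 on the log2 scale (SE 0.78 with edgeR's adjusted p = 0.0075), between -4.42 and -3.40 over the alternatives. Exoc4, Exoc5 and Exoc7 had log2 fold changes of -0.15 (SE 0.10), -0.06 (SE 0.05) and 0.20 (SE 0.09). Exoc7 overlaps Srp68 on the same strand, which was called higher (214 and 240 CPM on average). Exoc1l, Exoc3l1 and Exoc3l2 failed the filter, at most 1.38 CPM in any library, as did Cplx4 (at most 0.361 CPM) and Vamp5 (at most 0.12 CPM). Snap91 was at 31.1, 47.9 and 29.1 against 4.27, 24 and 17.2 CPM, and its log2 fold change of -1.25 did not pass (adjusted p = 0.146), though it did with DESeq2.

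Genes that work with the members were read from 4 lists of 81 genes in all, sorted by role. Of these 77 were named and 68 tested, 26 lower (38.2%, beside 27.0% of all genes) and 10 higher (14.7%, beside 28.1%), with a median log2 fold change of -0.23. The number higher was 6 without INS-SMA replicate 3. Ppfia2 and Synpr are among the 10, though INS-MOCK replicate 3 held them at 0.299 and 0.385 CPM, below the filter's 0.424 CPM. They reached the filter in every library of INS-SMA alone, so their calls carry the limit stated for the 4 members. Among granule transport genes, Rab27a, the Rab protein that recruits granuphilin, fell from 64.6 ± 4.81 to 31 ± 2.62 CPM (SD, n = 3), by 1.06. Rab3d fell by 1.36 and Rab3b by 2.86, while Rab3a had a log2 fold change of -0.12 and did not pass. In that list 4 of 14 tested fell (28.6%) and 2 rose (14.3%), beside 27.0% and 28.1% of all genes. In the list of active zone genes 6 of 17 fell (35.3%), among them Erc1 (-1.34), Rimbp2 (-0.87) and Pclo (-0.90), and 4 rose (23.5%). Cadps, a priming factor of dense-core granules, had a log2 fold change of 0.04 and did not pass.

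SNARE complexes are taken apart by the ATPase NSF with its adaptors, the SNAPs, which are unrelated to SNAP-25. Nsf fell from 201 ± 2.98 to 61.9 ± 4.49 CPM (SD, n = 3), by 1.70 on the log2 scale (edgeR adjusted p = 1.44e-05). The adaptor genes Napa, Napb and Napg fell by 0.29, 2.43 and 1.69. In the list of disassembly and other SNARE genes 7 of 20 tested fell (35%) and 3 rose (15%), beside 27.0% and 28.1% of all tested genes. Bet1 (-1.37) and Sec22b (-0.90) of the early secretory route were among those that fell, and Sec22a (0.80) and Bnip1 (0.77) among those that rose. Of 17 tested genes for other C2 domain and vesicle membrane proteins 9 fell (52.9%, beside 27.0% of all tested genes). Synpr was called higher, with the limit given above. Syp (synaptophysin) fell from 146 ± 6.2 to 56 ± 4.54 CPM, by 1.38, and Scamp4 by 2.12, Esyt3 by 1.27, Esyt1 by 1.17, Syn1 by 0.71 and Scamp5 by 0.71.

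**Figure D4:**
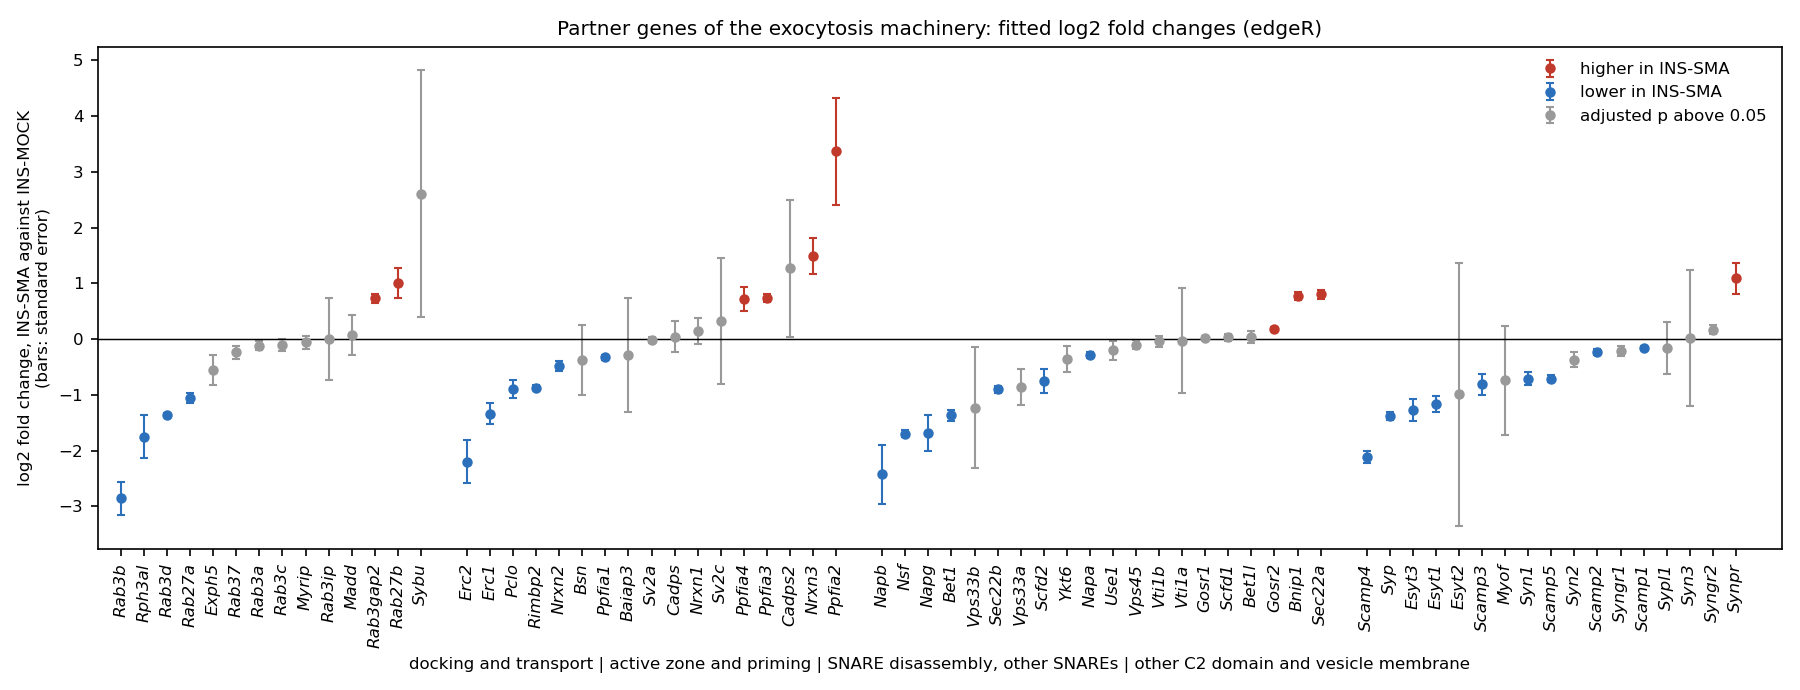
Fitted log2 fold change (vertical axis, INS-SMA against INS-MOCK, bars are standard errors) of the 68 tested partner genes, in 4 lists by role along the horizontal axis, coloured by the edgeR call. Of these, 26 are lower and 10 higher, and all 4 adaptor and ATPase genes of SNARE disassembly (Nsf, Napa, Napb, Napg) lie below 0.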

How the data were processed

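RNA-seq was read from 6 libraries (3 INS-MOCK, 3 INS-SMA). The authors deposited raw counts per transcript row, 1 column per library, without pooling. HISAT2, HISAT and DESeq2 and the builds hg19 and rn6 are named, per the submitters' processing notes, without their roles. For the counting program and strand setting: not given in the sources used here. Rows without a gene name (32.7% to 36.7% of counts) entered neither library sizes nor tests. Counts were summed per gene, filtered with filterByExpr (13363 of 21553 genes kept), scaled with TMM and tested with edgeR 4.0.16 (glmQLFit, glmQLFTest, group as the only term, R 4.3.3), with Benjamini-Hochberg adjustment over all tested genes. The SE is the size of the log2 fold change divided by the square root of F. The same fit was run on 23402 single rows. The floor of 3 counts per library, 0.117 to 0.18 CPM, covers counting error only.

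The members and lists were chosen with earlier results of these data known. Genes named with values were Sytl4, Snap25 and Syt4, a list of core fusion genes, the 2 members of each family with the smallest adjusted p, and the 5 largest changes in each direction with a mean of at least 1 CPM. The others were named to account for every member, and partner genes were named after their values were seen. Between replicates, chi-square divided by its degrees of freedom was 45 to 58.6, so none was a repeat deposit. The test was checked on simulated data for this comparison (13363 genes, 200 of them altered): edgeR found 24% of 1-unit and 76% of 2-unit log2 changes and made 7 false calls. Each simulated gene had the replicate spread typical of its level, and few genes changed, where 55.1% were called in the data. These rates may therefore not hold for the data.

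Alternatives were other scalings, filters and library sizes, DESeq2 1.42.0, the most abundant row of each gene, leaving out each library, and the replicate number as a block. Values of 2 tested members are not reported here, though they are in the counts.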

Additional observations from a re-analysis of the deposited data

How the results depend on the processing

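Of the 40 members called, 37 kept their call and direction in each of 15 alternatives on gene sums, and 31 also in their most abundant row taken alone. The 40, the 37 and the 31 all include Stx11, Stxbp6, Syt2 and Unc13c. These reached the low-count filter in INS-SMA alone, so their kept calls add no support. The exceptions on gene sums were Doc2a, Vamp4 and Vamp8. No called member changed sign. The values showed no pairing of the libraries by replicate number. Deviations from the group means of same-numbered libraries correlated at -0.03 to -0.01 over genes, which cannot settle how the libraries were prepared. With the replicate block 22 members were higher and 16 lower, where 6294 of all genes were called in place of 7359. In that fit 5 partner genes were higher, and 20 member rows were called in place of 42. Vamp4 (adjusted p = 0.052) and Doc2a (0.0504) missed the threshold there. Partner genes called higher numbered 10, and 3 in the most abundant row. Leaving out 1 library at a time gave 6 to 9 partner genes higher, 22 to 24 members higher, 16 to 18 lower and 29 to 37 member rows. Those fits called 6771 to 7001 of all genes. In the most abundant row the log2 fold change of Vamp2 was -1.40. With DESeq2 27 members were higher and 20 lower, where 8300 of all genes were called in place of 7359. Without normalisation factors the median of all genes was 0.13 in place of 0.03, and it was 0.27 with no low-count filter. Members at a few CPM, such as Unc13c, Stxbp6 and Doc2a, rest on few reads.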
